A study of Mus musculus with 7 samples.

Results

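The cells described here are a rare fraction of mouse bone marrow LSK cells, the lineage-negative, Sca-1-positive, cKit-positive compartment that holds stem cells and multipotent progenitors, in which transcripts of basophils and mast cells were counted. They were chosen by their own counts. A cell had to hold at least 1000 unique molecular identifiers (UMIs, each a counted transcript molecule), at least 500 detected genes and at most 10% mitochondrial UMIs, at least 2 UMIs of Cpa3, and at least 1 UMI of at least 2 of the 6 genes Ms4a2, Mcpt8, Prss34, Cyp11a1, Fcer1a and Gzmb. This gate took 96 of 24430 kept cells, or 0.393% (95% Clopper-Pearson interval 0.318% to 0.480%). The libraries came from bone marrow of mice with the genotype label 129S1/C57Bl/6, B4-/- and the title label B4galt1 KO (3 libraries, KO1 to KO3) and of mice labelled 129S1/C57Bl/6 and WT (4 libraries, WT1 to WT4). The design text calls the first group full B4galt1 knockouts, B4galt1 being an enzyme that adds galactose to protein sugar chains. The labels give no age, sex, number of mice per library or promoter-driven allele. P-values over libraries therefore concern these libraries and cannot be read as the spread between mice.

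Basophils and mast cells carry the high-affinity receptor for IgE on their surface and store histamine and proteases in granules, which they release when antigen binds that IgE. Basophils complete their development in bone marrow, while mast cells mature in tissues from progenitors that leave it. Transcription factors of the GATA family, with Gata2 foremost, act in both lineages and bind DNA at short sites with the core GATA.

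The 7 gate genes cover those functions. Ms4a2 (chromosome 19, 11615523 to 11623719, minus strand) and Fcer1a (chromosome 1, 173221284 to 173227214, minus strand) encode the beta and alpha chains of the IgE receptor. Cpa3 (chromosome 3, 20215620 to 20242181, minus strand) encodes carboxypeptidase A3 of mast cell and basophil granules. Mcpt8 (chromosome 14, 56082166 to 56085273, minus strand) and Prss34 (chromosome 17, 25298394 to 25300165, plus strand) encode serine proteases known from mouse basophils. Gzmb (chromosome 14, 56258838 to 56262260, minus strand) encodes the serine protease granzyme B, and Cyp11a1 (chromosome 9, 58006411 to 58027023, plus strand) the enzyme that starts steroid synthesis from cholesterol. These positions are those of GENCODE M21 on GRCm38, the assembly that mm10 also names.

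The gate itself required these genes to be detected together. As a description of their promoters, the 250 bases upstream of their starts were searched in RefSeq's GRCm38.p6 promoters for the GATA-type letters AGATAA and TGATAA on both strands. At least 1 match was found for 4 of the 7 genes. Of all 32851 promoters of the same length in that table, 16.6% held a match. The 4 promoters with a match are shown 5′ to 3′ on the strand of the gene, each ending at the base before the start, with the matches in capitals (TTATCT is AGATAA read on the other strand).
Cpa3: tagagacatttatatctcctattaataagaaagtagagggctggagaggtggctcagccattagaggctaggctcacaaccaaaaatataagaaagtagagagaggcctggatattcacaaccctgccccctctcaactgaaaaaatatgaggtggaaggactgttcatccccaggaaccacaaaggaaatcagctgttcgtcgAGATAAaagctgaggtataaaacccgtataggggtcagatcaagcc
Ms4a2: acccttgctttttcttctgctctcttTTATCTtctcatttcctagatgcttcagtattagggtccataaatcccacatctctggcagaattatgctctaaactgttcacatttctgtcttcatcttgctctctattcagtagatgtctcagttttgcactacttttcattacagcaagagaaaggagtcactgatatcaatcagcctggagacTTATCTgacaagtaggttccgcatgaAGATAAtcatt
Prss34: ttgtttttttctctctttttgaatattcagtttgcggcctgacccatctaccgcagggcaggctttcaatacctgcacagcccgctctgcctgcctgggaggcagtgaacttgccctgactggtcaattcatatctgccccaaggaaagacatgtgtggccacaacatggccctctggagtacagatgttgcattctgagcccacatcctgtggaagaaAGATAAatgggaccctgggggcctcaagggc
Fcer1a: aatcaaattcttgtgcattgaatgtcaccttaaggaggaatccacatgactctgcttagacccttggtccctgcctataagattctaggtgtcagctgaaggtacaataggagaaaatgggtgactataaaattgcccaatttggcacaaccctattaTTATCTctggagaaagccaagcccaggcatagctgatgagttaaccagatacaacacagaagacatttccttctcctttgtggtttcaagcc
The stretches are chr3:20242182-20242431 for Cpa3, chr19:11623720-11623969 for Ms4a2, chr17:25298144-25298393 for Prss34 and chr1:173227230-173227479 for Fcer1a. The match of Cpa3 began 46 bases before the start and that of Prss34 31 bases before it. Ms4a2 held 3 matches, at 224, 37 and 11 bases before the start, and Fcer1a held 1, at 92 bases. These letters were not found in the windows of Mcpt8, Cyp11a1 and Gzmb. A match is a run of letters and was not tested for binding.

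Facts of the libraries touch the counts below. The barcodes fell into 2 sets by their opening 6 bases: list A (KO1, KO2, WT1, WT2 and WT3, with 900 to 958 openings) and list B (KO3 and WT4, both with 480), although the labels name 1 kit. Kept cells numbered 1172 to 3072 in the libraries of list A, against 6855 and 8862 in list B. These were 32.4% to 49.9% of the barcodes of each library in list A, against 98.3% in KO3 and 96.2% in WT4. Total UMIs per library ran from 14970791 to 89747946. KO3 and WT4 shared 88 full barcodes, and 1 gated cell, in WT4, had a barcode also kept in another library. B4galt1 transcripts were counted in the other kept cells of all libraries, at 51.3, 55.6 and 27.4 UMIs per 1000000 (CPM) in KO1 to KO3 and 56.4, 69.1, 56.8 and 34.8 CPM in WT1 to WT4. These 3′ tags may lie outside a deleted part, so they do not check the labels. Xist was counted at 1895, 1637 and 1664 CPM in the gated cells of KO1, KO2 and WT2 and was at 0 in those of KO3, WT3 and WT4, so the labels hold libraries of different Xist level.

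The gated cells were spread unevenly over libraries. KO1 held 13 of 3072 kept cells (0.423%), KO2 held 2 of 1725 (0.116%) and KO3 held 42 of 6855 (0.613%). Among WT-labelled libraries, WT1 held 0 of 1244, which by a floor of 3 counts allows a share of up to 0.241% (Clopper-Pearson upper limit 0.296%). WT2 held 1 of 1172 (0.0853%), WT3 held 5 of 1500 (0.333%) and WT4 held 33 of 8862 (0.372%). The libraries of list B thus gave 75 of the 96 cells. Means over libraries were 0.186 percentage points higher under the KO label, and the labels overlapped (two-sided exact permutation test over 35 splits, p = 0.286). Within list A the difference was 0.13 points (p = 0.5, exact permutation). The gated cells were deep, with a median of 13965.5 UMIs against 9157 in the other kept cells. When every cell was thinned to 3000 UMIs, 35 cells passed the gate and the difference was -0.0189 points (p = 0.829, exact permutation).

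**Figure D1:**
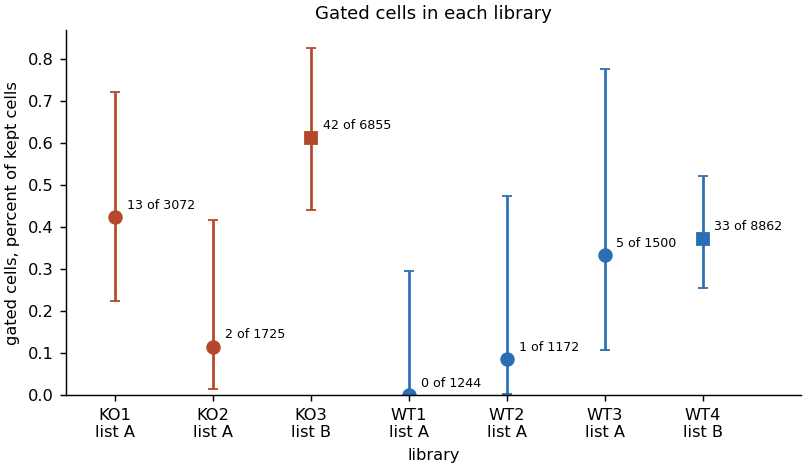
Gated cells as a percentage of kept cells in each library, with 95% Clopper-Pearson intervals that cover counting error only; red marks the KO label, blue the WT label, circles barcode list A and squares list B. KO3 is highest at 0.613% and WT1 is at 0. The interval of KO3 (0.442% to 0.827%) lies above those of KO2 (up to 0.418%) and WT1 (up to 0.296%), and all other pairs of intervals overlap.

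The values that chose the cells are a description and were not tested. Cpa3 ran from 2 to 75 UMIs per gated cell, with a median of 6.5. Ms4a2 was detected in 80 of the 96 cells, Fcer1a in 77, Mcpt8 in 69, Cyp11a1 in 51, Prss34 in 37 and Gzmb in 11. Both IgE receptor chains were detected together in 66 cells, and neither in 5. Exactly 2 of the 6 genes were found in 40 cells and at least 3 in 56. The 40 cells at that edge were deeper, at a median of 19214.5 UMIs against 9839, and lower in Cpa3, at 451 against 1205 CPM. Just outside the gate, 220 cells had at least 2 UMIs of Cpa3 and 1 of the 6 genes, with 328 CPM of Cpa3 and 3281 CPM of Mpo. Another 21 cells had 1 UMI of Cpa3 and at least 2 of the 6 genes. Of the 12035 barcodes that failed the cell filter, 11863 were above 10% mitochondrial UMIs. Among the 12035, 0 met the gene part of the gate, which by a floor of 3 counts allows a share of up to 0.0249%. Their depth was not compared with that of the kept cells.

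UMIs of the gate genes also occurred in cells that should lack them. In cells with at least 2 UMIs of Dntt, a lymphoid enzyme, Mcpt8 was seen in 11.5% of 4593 cells, Cpa3 in 2.66% and Ms4a2 in 0.174%, at a median depth of 11347 UMIs. Gzmb was seen in 0 of them, which by a floor of 3 counts allows up to 0.0653% of cells with a UMI. Among the other kept cells Mcpt8 was seen in 10.5%, at a median of 9157 UMIs, and in 25.5% of the cells with at least 5 UMIs of Mpo, the myeloperoxidase gene of early granulocyte progenitors. At equal depth, after thinning, Mcpt8 was seen in 7.78% of those Mpo-high cells and in 3.86% of the Dntt-positive cells, so it was not at 1 level in all cells. Of the 69 gated cells with Mcpt8, 12 held 1 UMI of it, and 7 of these met the gate with that UMI and 1 other gene. The IgE receptor gene Ms4a2 was seen in 0.497% of the other kept cells and in 4.51% of those with at least 2 UMIs of Gata1.

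The gated cells were not uniform, and the split below was made after the values had been seen, so it carries no test. A first set of 29 cells held at least 20 UMIs of Mcpt8 plus Prss34. Their counts reached 481 UMIs of Mcpt8 and 613 of Prss34 in 1 cell each, and the summed transcripts of the set held 21235 CPM of Mcpt8 and 26711 CPM of Prss34. KO3 held 12 of these cells, WT4 held 16 and WT2 held 1, at 21 UMIs. No other library of list A held any. Among the 96 cells, 11 had between 10 and 29 UMIs of the 2 proteases and lay near the split.

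Transcripts of histamine synthesis and basophil surface receptors were found in nearly every cell of this protease-high set. Hdc, which makes histamine, was detected in 29 of 29 cells at 1508 CPM, and Cd200r3, an activating receptor of basophils and mast cells, in 27 at 694 CPM. Fcer1g, the signalling chain of the IgE receptor, stood at 1482 CPM and Ccl3, a chemokine, at 2579 CPM. Gata2 was found in 28 cells. The set was also shallow, with a median of 7655 UMIs per cell. Kit, the receptor whose protein was used in the sort, was not detected in 21 of the 29 cells, and stood at 45.3 CPM in their sum. Among the other kept cells Kit was detected in 74.9% at a median of 9157 UMIs.

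A second set of 7 cells had at least 2 UMIs of Gzmb and lay below that split. None held Prss34, and 3 held 1 or 2 UMIs of Mcpt8. They came from KO3 (2), WT3 (1) and WT4 (4), and held 2 to 33 UMIs of Gzmb. Their sum held 1172 CPM of Gzmb and 147 CPM of Itgb7, the integrin chain known from mast cell progenitors. Il1rl1, the interleukin 33 receptor, stood at 101 CPM. Cd200r3 and Gata1 were at 0, and Kit was detected in 5 of the 7 cells at 237 CPM. Cma1, a chymase of mast cells, had 2 UMIs in this set. Over all 96 gated cells, 8 of 24 genes of the mast cell list were at 0 UMIs: Mcpt1, Mcpt2, Mcpt4, Tpsb2, Tpsab1, Mrgprb1, Mrgprb2 and Tph1.

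The remaining 60 cells were the deepest, with a median of 17851 UMIs, and made up all gated cells of KO1 (13 of 13) and KO2 (2 of 2). They held little of the basophil proteases, at 179 CPM of Mcpt8 and 23.5 CPM of Prss34. Gata2 was detected in 52 of them and Kit in 48. In their sum Mpo stood at 2184 CPM, Elane (neutrophil elastase) at 809 CPM and Prtn3 (proteinase 3) at 1040 CPM. Mpo reached 5 UMIs in 43 of the 60 cells, but Elane was detected in 22, and 4 cells (2 of KO1 and 2 of WT4) held 648 of its 895 UMIs. Elane stood at 37.7 CPM in the protease-high set. Hdc was lower here than in the protease-high cells, at 202 CPM, and Cd200r3 stood at 56.1 CPM.

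**Figure D2:**
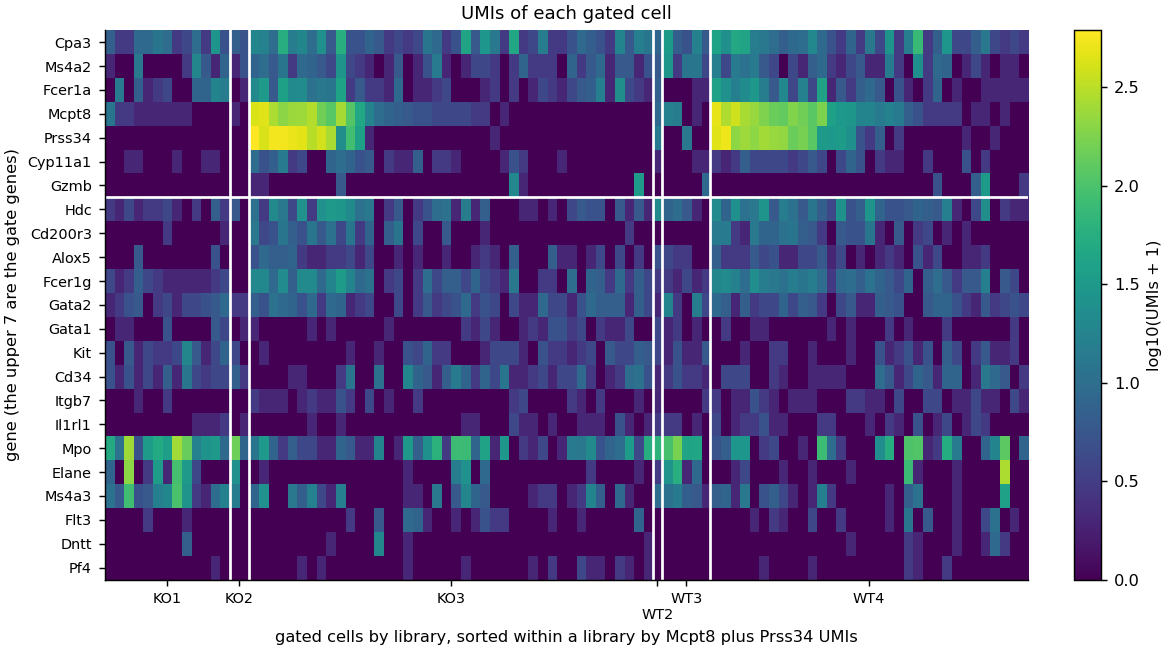
UMIs of the 7 gate genes (above the white line) and 16 other genes in each of the 96 gated cells, as log10(UMIs + 1), by library and sorted by Mcpt8 plus Prss34. The bright Mcpt8 and Prss34 blocks sit in KO3 (12 cells) and WT4 (16 cells), while of the 13 cells of KO1, 12 carry Kit and none carries Prss34.

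**Figure D3:**
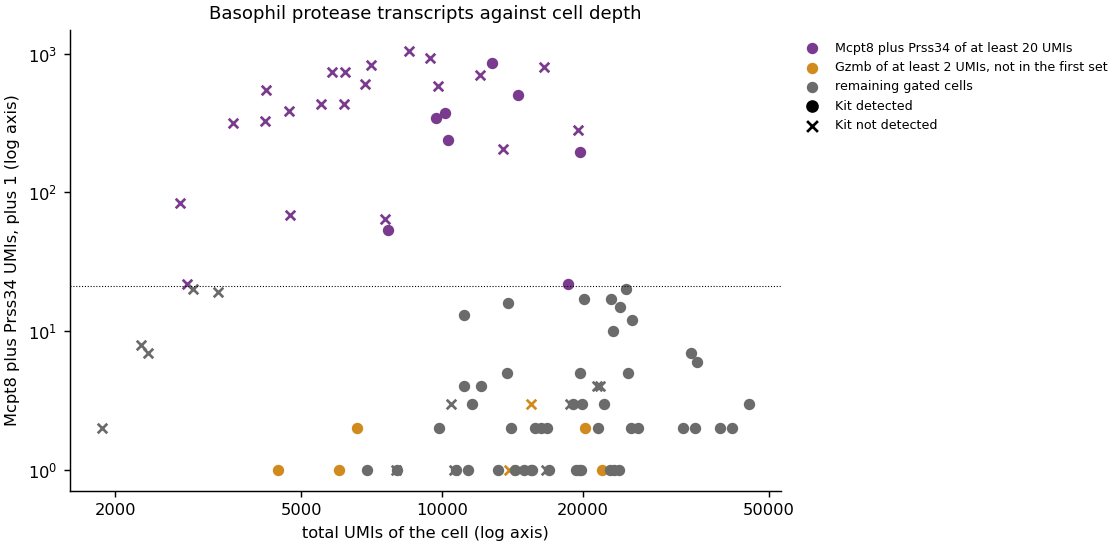
Mcpt8 plus Prss34 UMIs (plus 1) of each gated cell against its total UMIs, both on log axes; colours give the 3 sets, and crosses mark cells without a Kit UMI. The dotted line is the split at 20 UMIs; of the 29 cells above it, 21 are crosses.

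To see what else the gated cells carried, their summed counts were compared with those of the other kept cells of the same library, in the 3 libraries with at least 10 gated cells (KO1, KO3 and WT4). edgeR's quasi-likelihood test with the library as a block called 738 of 14043 genes (5.26%) at a Benjamini-Hochberg adjusted p below 0.05, of which 397 (2.83%) were higher and 341 (2.43%) lower. DESeq2 called 286 higher and 64 lower, so the share of higher calls moved from 53.8% to 81.7%. Without KO3 the count was 234 and without WT4 it was 309. The gate genes were left out of the test, but genes that go with them were bound to follow. The gene filter also let in genes near absent from the other cells through their gated sums. Such genes could only come out higher, so counts of higher genes in the lists below are a description. The same filter was used in the later comparisons. The fit left 2 residual degrees of freedom, and edgeR estimated the spread of each gene partly from all genes together. Very small p-values below therefore do not measure the spread over 3 libraries alone. Values below are CPM of the summed cells, mean ± SD over the 3 libraries, and fold changes are log2 with their standard errors (SE).

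Basophil genes were prominent among those that rose, which made up 2.83% of all genes tested. Il6, a cytokine, was at 6.22, 92.0 and 139 CPM in the gated cells of KO1, KO3 and WT4 and at 0.124 to 0.409 CPM in the other cells (log2 fold change 8.01, SE 0.77, adjusted p = 6.65e-22). It was low in KO1. Alox5, the 5-lipoxygenase that starts leukotriene synthesis, was at 28, 137 and 130 CPM against 1.42 ± 0.760 (SD, n = 3), a change of 6.21 (SE 0.45). Without the cells of highest doublet score its adjusted p was 0.182. Il4, a cytokine of type 2 immunity, rose by 3.45 (SE 0.47) and Hgf, a growth factor, by 1.93 (SE 0.24). Of the 24 basophil genes of the list, 18 were tested beyond the gate genes, 11 were higher and 0 lower. Their median was 1.87 against -0.11 over all genes tested. Some of the 18, such as Il6, entered the test through the gated sums, so the count and the median are a description.

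Hdc and Cd200r3 did not pass, though their levels were far apart. Hdc was at 77.8, 516 and 676 CPM in the gated cells of KO1, KO3 and WT4 and at 20.3, 7.48 and 9.35 CPM in the other cells, so every gated sum lay above every other sum (log2 fold change 5.16, SE 1.54, adjusted p = 0.421). Cd200r3 was at 9.33, 211 and 282 CPM against 0.248 to 0.453 CPM (8.84, SE 1.31, adjusted p = 0.213). In both genes KO1 was the lowest of these 3 gated sums.

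Csrp3, a LIM-domain protein known from muscle, was among the largest rises. It was at 96.5, 368 and 264 CPM in the gated cells of KO1, KO3 and WT4 against 1.39 ± 0.974 CPM (SD, n = 3) in the other cells (7.47, SE 0.18). All 3 gated sums lay far above the other sums. The sums of WT2 (1 cell) and WT3 (5 cells) were at 322 and 338 CPM, while the 2 cells of KO2 held none. Other large rises were Gna14, a G protein alpha subunit (3.20, SE 0.31), Fam129a (2.82, SE 0.24), Auts2 (2.63, SE 0.13) and Lpcat2, an enzyme of platelet-activating factor synthesis (2.54, SE 0.25). Apoe, apolipoprotein E, was at 401, 393 and 282 CPM against 71.5 ± 15.1 CPM (SD, n = 3), a change of 2.30 (SE 0.13). Itga2b, the integrin alpha chain of platelets and their precursors, was at 105 ± 12.7 against 26.4 ± 10.1 CPM (SD, n = 3). The list of largest rises also held Ets1, Atp6v0a1, Slc7a8 and Edem3, by 1.93 to 1.97. Their gated sums ran from 6.22 CPM (Ets1 in KO1) to 94.1 CPM (Atp6v0a1 in WT4).

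Receptors of growth factors went in both directions. Of 20 cytokine receptor genes tested, 5 were higher and 5 lower, against 2.83% and 2.43% of all genes tested. Csf2rb, the common beta chain of the interleukin 3, interleukin 5 and GM-CSF receptors, was at 162, 83.0 and 98.6 CPM against 61.9, 24.5 and 13.9 CPM (1.91, SE 0.18). Its close copy Csf2rb2, the interleukin 3 specific chain, rose by 3.27 (SE 0.37); reads of near-identical copies may be split between them. Il1rl1 was at 15.6, 34.3 and 80.6 CPM against 0.280 to 0.968 CPM (6.07, SE 0.68), and Il3ra and Il18r1 were also higher. Flt3, the receptor of lymphoid-primed progenitors, was at 9.33, 75.8 and 91.8 CPM against 147, 255 and 336 CPM, and fell by 2.07 (SE 0.17). Il6ra, Csf1r and Csf3r were lower too. Kit was at 168, 123 and 96.3 CPM in the gated cells of KO1, KO3 and WT4 and at 164, 137 and 142 CPM in the other cells, and its difference did not pass (-0.24, SE 0.15, adjusted p = 0.478).

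Granule and mast cell genes rose in part. Of 16 tested granule, proteoglycan and amine storage genes, 4 were higher and 0 lower, against 2.83% and 2.43% of all genes tested. Srgn, serglycin, the proteoglycan that holds granule proteases, was at 2276 ± 171 against 1335 ± 186 CPM (SD, n = 3; 0.75, SE 0.08). Cd63, a granule membrane protein, was at 749 ± 280 against 217 ± 10.3 CPM (1.71, SE 0.12). Slc18a2, the transporter that loads amines such as histamine into granules, rose by 1.52 (SE 0.21) and Ctse, cathepsin E, by 0.61 (SE 0.15). On the mast cell list, 10 genes were tested outside the gate and 4 were higher: Slc18a2, Il1rl1, Itgb7 and Cd63. Mitf, a transcription factor of mast cells, did not pass (0.13, SE 0.34, adjusted p = 0.932).

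Of 18 tested genes that carry the signal of the IgE receptor, 5 were higher, against 2.83% of all genes tested, among them Fyn, Lat2, Gab2 and Prkcb, and 1, Plcg2, was lower. Their median was 0.05. Lat2, an adaptor of the receptor's signal, was at 15.6, 191 and 181 CPM in the gated cells of KO1, KO3 and WT4 against 24.9, 70.7 and 66.1 CPM. In KO1 it was the lower of the 2 values. Fcer1g was at 84.0 CPM in KO1, below the 100.1 CPM of the other cells there, and at 565 and 629 CPM in KO3 and WT4 (1.82, SE 0.88, adjusted p = 0.592).

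Of 24 lineage transcription factors tested, 6 were higher and 3 lower, against 2.83% and 2.43% of all genes tested. Gata2 was at 128, 300 and 269 CPM in the gated cells of KO1, KO3 and WT4 against 35.8, 89.6 and 65.2 CPM (1.86, SE 0.14, adjusted p = 8.63e-35). Gata1, shared with the erythroid and megakaryocyte lineages, was at 43.6, 63.1 and 29.1 CPM against 1.61, 12.8 and 9.54 CPM (2.64, SE 0.34). Cebpa, a myeloid factor, rose by 1.86 (SE 0.32). Runx1, Ikzf2 and Zeb2 were also higher, while Irf8, Lmo2 and Meis1 were lower. Irf8, the factor of monocytes and dendritic cells, fell by 2.86 (SE 0.25).

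**Figure D4:**
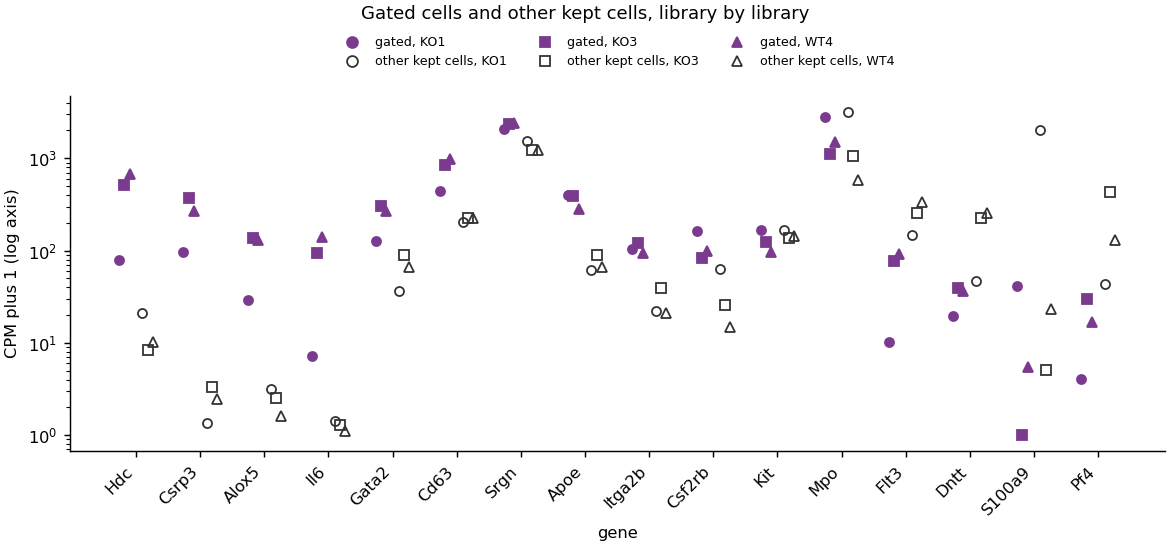
CPM plus 1 on a log axis for 16 genes in the gated cells (filled) and in the other kept cells (open) of KO1, KO3 and WT4. Hdc, Csrp3, Alox5 and Il6 are higher in all 3 gated sums, least so in KO1; Kit and Mpo overlap, and the open symbols of S100a9 spread from 4.14 to 2027 CPM.

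Lymphoid and granulocyte-monocyte genes were lower in part, where 2.43% of all genes tested were lower. Of 11 lymphoid genes tested, 6 were lower and 0 higher; Dntt was at 18.7, 37.9 and 35.8 CPM in the gated cells of KO1, KO3 and WT4 against 45.4, 226 and 255 CPM (-2.51, SE 0.20). Ighm, the immunoglobulin heavy chain, changed by -2.42 (SE 0.22). Of 16 granulocyte-monocyte genes, 8 were lower and 0 higher, led by S100a9 (-5.49, SE 0.27), Camp (-4.41, SE 0.41), Ngp (-4.33, SE 0.46) and F13a1 (-2.91, SE 0.32). S100a9 was at 2027 CPM in the other cells of KO1 and at 4.14 CPM in those of KO3, both under the KO label. Without KO1, Camp, Ngp and F13a1 had adjusted p of 0.0502, 0.142 and 0.0503. Igkc, an immunoglobulin light chain, was at 3.11, 3.61 and 2.24 CPM in the gated cells of KO1, KO3 and WT4 and at 1.29, 70.0 and 221 CPM in the other cells (-5.06, SE 0.39). Cd74, the invariant chain of MHC class II, changed by -2.61 (SE 0.32). By DESeq2 the adjusted p was 0.364 for Igkc, 0.524 for F13a1 and 0.0718 for Ighm. The primary granule genes Mpo (0.38, SE 0.52, adjusted p = 0.868) and Elane (-0.15, SE 0.83, adjusted p = 0.979) did not pass.

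Megakaryocyte, erythroid and stem cell genes gave mixed counts, where 2.83% of all genes tested were higher and 2.43% lower. Of 14 megakaryocyte genes tested, 2 were higher, Itga2b and Plek, and 3 lower, Pf4 and Cavin2 among them. Pf4, platelet factor 4, was at 3.11, 28.9 and 15.7 CPM in the gated cells of KO1, KO3 and WT4 against 42.8, 431 and 131 CPM (-3.65, SE 0.24). Of 11 erythroid genes, 2 were higher, Klf1 among them, and 2 lower, Car2 and Hbb-bt. Of 12 stem cell genes, 7 were lower and 0 higher, with Mecom at -1.32 (SE 0.15) and Hlf at -1.21 (SE 0.17). Ly6a, the gene of the sort marker Sca-1, was among these 7 and was detected in 15 of the 96 gated cells. Cd34 was lower as well (-0.72, SE 0.13). Siglecf, 1 of 3 tested eosinophil genes, was higher by 2.14 (SE 0.53). Of the other genes of that list, Prg2, Ear1, Ear2 and Ear6 were at 0 in the gated cells. Epx had 7 UMIs there, in 4 of 96 cells, while Cebpe had 29, Ccr3 16, Il5ra 3 and Prg3 1. Of 7 tested T, NK and innate lymphoid genes only Nkg7 passed (0.93, SE 0.12), and Gzma was at 0.

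Levels of other cell types' lists in the gated sums of KO1, KO3 and WT4 were as follows. The 16 erythroid genes summed to 361 to 759 CPM in the gated cells and 361 to 1495 CPM in the other cells. The 16 megakaryocyte genes summed to 498 to 658 CPM against 405 to 875 CPM. The 12 lymphoid genes summed to 99.6 to 267 CPM against 406 to 983 CPM. The 16 granulocyte-monocyte genes summed to 2951 to 9257 CPM in the gated cells and to 1887 to 15706 CPM in the other cells. KO1 was the highest for this list in both kinds of cell. The part of these transcripts in the results was not tested.

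Mitotic genes were higher in the gated cells than in the other kept cells, where 2.83% of all genes tested were higher. Against the Mpo-high cells 3 of 25 G2/M genes were higher, where 2.81% of all genes tested were. Against the cells with at least 2 UMIs of Gata1, 0 of 25 were. Against the other kept cells, 15 of 25 G2/M genes tested were higher and 0 lower, with a median of 0.61. There Ube2c, which drives exit from mitosis, rose by 0.91 (SE 0.13) and Ccnb2, cyclin B2, by 0.87 (SE 0.14). Mki67 was at 367, 144 and 103 CPM in the gated cells of KO1, KO3 and WT4 against 272, 76.3 and 76.1 CPM (0.57, SE 0.14). Among 25 S phase genes 0 passed, and their median was -0.07. As shares of UMIs, the G2/M genes made up 0.387%, 0.337% and 0.274% of the gated sums against 0.259%, 0.200% and 0.189%, higher in 3 of 3 libraries, and with 3 libraries an exact sign-flip permutation test cannot give less than p = 0.250, the value found. Over the 6 libraries with gated cells the difference was 0.116 points (exact permutation p = 0.0625, adjusted 0.125), and WT2, with 1 gated cell, went the other way at 0.199% against 0.250%. In the Gata1-positive cells of KO1, KO3 and WT4 the G2/M share was 0.392%, 0.363% and 0.353%, above the gated share in each. The protease-high set held 158 CPM of Mki67 and the remaining cells 222 CPM. Depth moved with this result, the gated cells being deeper, and its part was not tested.

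The genes named in the study's design and title did not pass the test against the other cells. B4galt1 was at 49.8, 23.5 and 51.5 CPM in the gated cells of KO1, KO3 and WT4 against 51.3, 27.4 and 34.8 CPM (0.11, SE 0.24, adjusted p = 0.916). Muc13, a membrane mucin named in the series title, was at 74.7, 263 and 137 CPM against 95.6, 221 and 109 CPM (0.13, SE 0.15, adjusted p = 0.783). Of 6 tested genes of the beta-1,4-galactosyltransferase family 0 passed. On the list of galactose readers and caps, Lgals9, a galectin, was higher (0.82, SE 0.14) and St3gal6, a sialyltransferase, lower (-1.92, SE 0.59), among 12. Of 18 genes of heparan and chondroitin chain synthesis, the chains that serglycin carries, Xylt1, which starts them, was the 1 that passed (0.83, SE 0.19), a share near the 5.26% of all genes called.

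The gated cells were next set against the populations most like them. All 7 libraries held 444 other cells with at least 2 UMIs of Gata1. Against those of KO1, KO3 and WT4, edgeR called 371 of 6627 genes (5.60%), of which 305 (4.60%) were higher and 66 (0.996%) lower. DESeq2 called 209. Without KO1 the count was 1033 and without KO3 it was 212. The largest rises were Igsf6 (5.23, SE 0.59), Ccl3 (5.08, SE 0.25), Csrp3 (4.14, SE 0.25), Alox5 (4.13, SE 0.49), Fam129a, Clec12a (3.77, SE 0.32), Pglyrp1 (3.77, SE 0.24) and Ccl9 (3.69, SE 0.58). Ccl3 was at 3.11, 817 and 1145 CPM in the gated cells of KO1, KO3 and WT4, so that the KO1 value stood far from the others. Pf4 was at 3523 CPM in the Gata1-positive cells on average and differed by -7.55 (SE 0.37). Cavin2, a caveola protein, had 0 UMIs in the gated cells and 89.7 CPM in the Gata1-positive cells, at least 39.5-fold lower by a floor of 3 counts over the 3 libraries. Aqp1, a water channel, differed by -5.44 (SE 0.46), and Plcb1, Bex4, Abcb4, Rab27b and Nfia by -3.31 to -2.35. Of 7 granulocyte-monocyte genes tested, 4 were higher (Mpo, Elane, Prtn3 and Ms4a3), by 1.95 to 3.19, and 0 lower. Gata2 was higher than in the Gata1-positive cells by 1.17 (SE 0.22), and 0 of 25 G2/M genes passed here.

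Other cells with at least 5 UMIs of Mpo numbered 8626 in all 7 libraries. Against those of KO1, KO3 and WT4, 649 of 13248 genes (4.90%) were called, 372 (2.81%) higher and 277 (2.09%) lower. DESeq2 called 307, and without KO3 or WT4 the counts were 200 and 324. Cd200r3 (9.10, SE 0.90, adjusted p = 0.0286), Csrp3 (8.41, SE 0.21), Il6 (8.36, SE 0.69), Lilr4b (7.07, SE 0.63) and Alox5 (6.66, SE 0.42) rose most. Without KO3 the adjusted p of Cd200r3 was 0.703. Apoe, Fam129a and Gna14 followed, at 2.86 to 3.26. Gata2 was higher by 2.56 (SE 0.15) and Gata1 by 3.92 (SE 0.44), and 11 of 24 lineage transcription factors were higher. S100a9 (-4.79, SE 0.31), F13a1 (-3.43, SE 0.30), Irf8 (-3.38, SE 0.25), Dntt (-2.78, SE 0.22), Ighm (-2.59, SE 0.22), Flt3 (-2.15, SE 0.18), Ly6c2 (-1.99, SE 0.22) and Serpinf1 (-1.70, SE 0.28) were lower. Without KO1 the adjusted p of S100a9 was 0.130. Both comparisons use the same gated sums, so their calls are not independent.

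The labels were compared next. Libraries with at least 10 gated cells numbered 2 under the KO label and 1 under the WT label, so that the WT side of the planned test would have been 1 library, and that test was not made. A fit over the 6 libraries with at least 1 gated cell, with the barcode list as a covariate, was added after these numbers were known. edgeR called 0 of 3936 genes (0%), the 7 gate genes included, and 160 had an unadjusted p below 0.05. By DESeq2 the numbers were 0 and 45. The smallest p-values among lower genes were those of Mns1 (-1.54, SE 0.37, adjusted p = 0.140), Syne1 (-1.59, SE 0.39), Rgcc (-1.50, SE 0.38), Nfkbia (-1.50, SE 0.37), Hexim1 (-1.85, SE 0.49) and Dtnb (-1.46, SE 0.40). Nfkbia, the inhibitor of NF-kappa-B, was at 93.3, 27.7 and 134 CPM in KO1 to KO3 and at 751, 458 and 161 CPM in WT2 to WT4, with no overlap. In the libraries of list A alone Nfkbia passed, at -2.77 (adjusted p = 2.02e-05), as did Mns1, at -2.52 (adjusted p = 1.03e-04). WT2 is 1 cell and WT3 is 5 cells. Among higher genes they were Tsix (3.56, SE 0.94, adjusted p = 0.151), Apobec3, Serpina3g, Hmgb3, Nde1 and Exosc7, at 0.91 to 1.31 for the last 5. Tsix is the antisense partner of Xist and followed the Xist levels of the libraries. B4galt1 (-0.70, SE 0.49) and Muc13 (0.54, SE 0.39) had adjusted p of 1 in that fit. The result rests on few cells, and without those of highest doublet score it gave 14 calls. Without KO3, or without WT4, it gave 12 calls. With the barcode list as a covariate these 2 fits compare the labels within list A alone, so they are not separate checks.

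The gate genes differed between libraries as follows. Cpa3 was at 289, 278 and 913 CPM in KO1 to KO3 and at 376, 760 and 1021 CPM in WT2 to WT4. Mcpt8 was at 65.3, 27.7 and 5170 CPM and at 429, 374 and 6509 CPM in the same order, and Prss34 at 0, 0 and 7586 CPM and at 698, 145 and 6448 CPM. The 2 libraries of list B were highest for these 3 genes. Ms4a2 was at 143, 139 and 319 CPM in KO1 to KO3 and at 268, 676 and 349 CPM in WT2 to WT4, with the highest value in WT3 of list A. Fcer1a was at 218, 27.7 and 550 CPM and at 322, 24.1 and 616 CPM. Cyp11a1 was at 15.6, 0 and 166 CPM and at 53.7, 24.1 and 139 CPM, and Gzmb at 0, 0 and 108 CPM and at 0, 96.5 and 98.6 CPM.

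Within list B, KO3 and WT4 give 1 library per label and no test. The protease-high set made up 12 of 42 gated cells in KO3 (28.6%) and 16 of 33 in WT4 (48.5%). Within that set Cd200r3 and Cpa3 had overlapping counting intervals: Cd200r3 was at 744 CPM (Poisson interval 591 to 923, counting error only) in KO3 and 749 CPM (610 to 909) in WT4, and Cpa3 at 2086 (1825 to 2373) and 1857 CPM (1635 to 2100). Prss34 was at 38114 CPM (36970 to 39284) in KO3 and 21040 CPM (20277 to 21825) in WT4, and Mpo at 707 CPM (559 to 883) and 1204 CPM (1026 to 1402). Mcpt8 was at 25364 CPM (24433 to 26322) and 20739 CPM (19981 to 21518), and Ccl3 at 3183 CPM (2859 to 3534) and 2444 CPM (2188 to 2721). Il1rl1 was at 18.1 CPM (2.20 to 65.5) in KO3, from 2 UMIs, and 132 CPM (78.3 to 209) in WT4. These 5 genes had intervals that did not overlap. Muc13 was at 118 CPM (62.8 to 202) and 29.4 CPM (8 to 75.2), with overlap. Among the remaining gated cells, Elane was at 120 CPM (88.9 to 158) in KO3 and 1402 CPM (1260 to 1555) in WT4. There, 2 cells with 276 and 78 UMIs gave nearly all the Elane of WT4. Ccl3 was at 237 CPM (193 to 289) and 693 CPM (594 to 803).

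**Figure D5:**
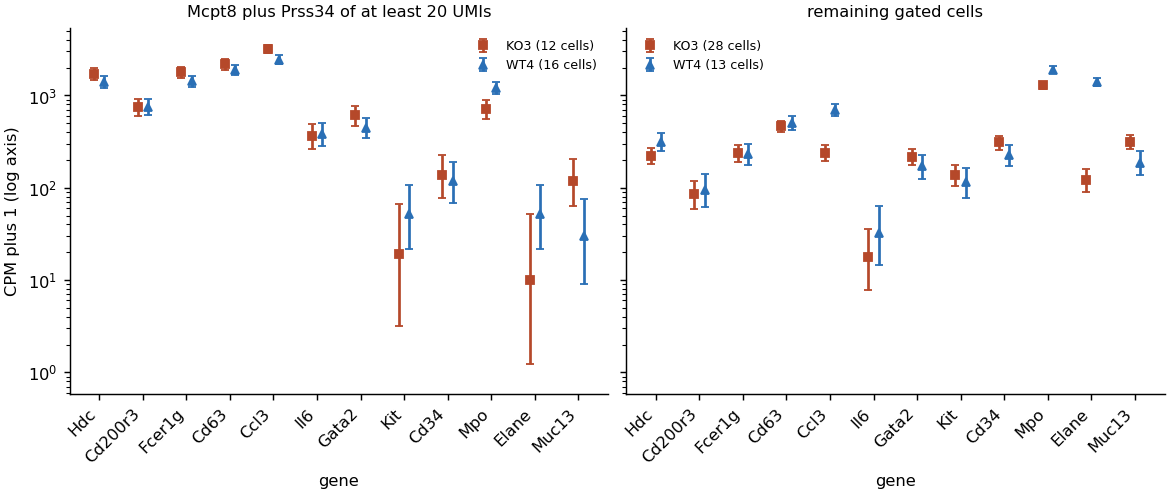
CPM plus 1 on a log axis for 12 genes in KO3 (red squares) and WT4 (blue triangles), in the protease-high gated cells (left) and the remaining gated cells (right), with exact 95% Poisson intervals that cover counting error only. Hdc and Cd200r3 lie close between the libraries in the left panel, and Elane stands apart in the right panel, at 120 against 1402 CPM.

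Whether the label difference of the gated cells departed from that of the other kept cells was tested as an interaction in KO1, KO3 and WT4. It called 24 of 14049 genes (0.171%), 1 higher (0.00712%) and 23 lower (0.164%), gate genes included: 2 of the calls, Fcer1a and Ms4a2, are genes that chose the cells. As the gate used their counts, those calls of gate genes carry no weight. WT4 was the only WT-labelled library, and the fit left 1 residual degree of freedom. edgeR estimated the spread partly from all genes together, and otherwise it comes from KO1 and KO3 alone. Those 2 also differ in barcode list, which this fit does not hold apart. Outside the gate genes, Elane (-2.29, SE 0.22), S100a8 (-4.55, SE 0.44) and Mpo (-1.48, SE 0.16) were among those called, all with a lower difference between KO and WT labels in the gated cells than in the others. Mpo was at 2772, 1115 and 1490 CPM in the gated cells of KO1, KO3 and WT4 and at 3174, 1061 and 577 CPM in the other cells. Elane was at 1154, 93.8 and 813 CPM in the gated cells and at 1680, 246 and 325 CPM in the other cells. In WT4, 2 cells with 276 and 78 UMIs gave most of the gated Elane. In KO1, 2 cells with 202 and 92 UMIs did. Over 6 libraries with terms for the barcode list, Mpo was at -2.12 (adjusted p = 9.01e-12). Elane, at -3.28 (adjusted p = 0.252), and S100a8, at 0.32 (adjusted p = 1), did not pass. The gated sums added in that fit hold 2 cells (KO2), 1 cell (WT2) and 5 cells (WT3). B4galt1 (-0.75, SE 0.51) and Muc13 (-0.33, SE 0.33) did not pass, both at an adjusted p of 1.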

How the data were processed

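Single-cell RNA was counted in 7 libraries of mouse LSK cells. Each file holds raw counts, 1 UMI count for each gene in each barcode, as deposited by the authors; per the file headers they were made with Cell Ranger 7.0.0. Seurat 4.4.0 and mm10 are also named, per the submitters' processing notes. The annotation and the authors' filters are not given in the sources used here. Scrublet (scanpy 1.11.5) marked 14 of 24430 cells, so it cannot be said to have worked and doublets remain; an alternative left out 1348 cells of highest score. Counts were summed per library and tested with edgeR 4.0.16 in R 4.3.3 (quasi-likelihood, TMM, filterByExpr, two-sided, Benjamini-Hochberg over all genes), with DESeq2 1.42.0 as an alternative. CPM are plain UMIs per 1000000, while fold changes carry TMM factors. Exact permutation tests ran over libraries. The edgeR steps were tested on simulated data with 200 changed genes. At a log2 change of 1, 36.5% were recovered against the other kept cells, 10% by label over 6 libraries and 2.5% in the interaction. At a log2 change of 2 the shares were 62.5%, 93.5% and 28%. Genes that did not pass may therefore still differ. The lowest chi-square per degree of freedom between libraries was 20.2, so none was counted as a copy.

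The gated cells of KO1, KO2, KO3, WT2, WT3 and WT4 held 321380, 36037, 554331, 18634, 82893 and 446475 UMIs, which sets the precision. Named genes are the 7 gate genes, B4galt1 and Muc13; against the other kept cells, the 15 top rises and 10 top falls past the threshold with a mean of at least 50 CPM in the higher sum; 8 per direction against similar populations; 6 per direction by label at 20 CPM; and up to 4 of smallest p per list. Mitochondrial, ribosomal protein, Gm and Rik genes were passed over. Hdc, Cd200r3, Kit, Fcer1g, Mpo, Elane, Cd34, Mki67, Mitf, Cebpa and the genes given for the split of the gated cells were named after their values were seen. The cells and gene lists were chosen with earlier results of these data known. The planned label test on libraries with 10 gated cells, and that of gated cells with Mcpt8 or Prss34 against those with neither, were not made: the first had 1 such library under the WT label, and the second had 1 library with 10 of each kind. Some genes that lists count are not reported here by name.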

Additional observations from a re-analysis of the deposited data

Results flagged for a closer look

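For 3 genes outside the gate the difference between labels in the gated cells departed from that in the other kept cells of KO1, KO3 and WT4, by edgeR's interaction test. The log2 values were -2.29 for Elane, -1.48 for Mpo and -4.55 for S100a8. Most of the gated Elane came from 2 cells of WT4 (276 and 78 UMIs) and 2 of KO1 (202 and 92 UMIs). The WT side is 1 library, WT4, and the fit has no term for the barcode list. Over 6 libraries with such terms Mpo passed (-2.12), while Elane (-3.28, adjusted p = 0.252) and S100a8 (0.32, adjusted p = 1) did not. The gated sums added there hold 2 cells (KO2), 1 cell (WT2) and 5 cells (WT3). In the gated cells S100a8 was at 59.1, 1.80 and 56.0 CPM in KO1, KO3 and WT4, and in the other cells at 1490, 5.53 and 60.2 CPM. KO1 held none of the protease-high gated cells, and their part in these values was not tested.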

How the results depend on the processing

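Most values kept their direction and side of the threshold. The label difference in the share of gated cells turned to -0.0189 points when cells were thinned, and ran from 0.0718 to 0.320 with 1 library left out. With the replicate number as a block (replicate block, differences within numbers) it was 0.244 points (exact permutation p = 0.25). Correlations of deviations from the label mean, between libraries of the same number, were 0.533, 0.725 and -0.357. KO1 with WT1 and KO2 with WT2 lie within list A, while KO3 and WT3 lie in different lists. The check held no term for the list, so it cannot show whether the numbers pair the libraries. The block without the barcode list left 0 genes called by label, with 193 at an unadjusted p below 0.05, and could not be fitted with the list.

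Against the other kept cells DESeq2 called 350 genes, and leaving out a library gave 234 to 993. Against Gata1-positive cells the counts were 209 (DESeq2), 813 (no gene filter), 777 (without the deepest cells), 1033 (at least 20 cells per sum), 753 (Gata1 and Klf1 detected), 215 (6 libraries) and 212 to 1033 (a library left out). Against Mpo-high cells they were 307 (DESeq2) and 200 to 866. By label, counts were 14 in list A alone, 2 with the UMI total as covariate and 2 with no gene filter. They were 1 with at least 3 of the 6 genes, 1 without the deepest cells and 14 without the highest doublet scores. With a library left out they were 0 to 12, where the 12 (without KO3 or WT4) rest on list A alone. The interaction called 21 genes with no filter and 29 over 6 libraries; it could not be fitted in list A alone or with a library left out.

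Shares of UMIs, gated minus other cells: S phase moved from -0.0019 to 0.0042 points (6 libraries), 0.0117 (list A) and -0.0087 to 0.0041 (a library left out). The mitochondrial share was -0.376 points, and -0.646 over 6 libraries (exact permutation p = 0.0312, adjusted 0.125). The ribosomal protein share was -1.73 points, and turned to 0.374 (6 libraries) and 0.441 (list A). By label, S phase went from 0.0381 to -0.052 over 6 libraries. The mitochondrial difference went from 0.588 to -0.278 over 6 libraries and ran from -0.0942 to 1.27 with a library left out, and the ribosomal from -2.46 to 0.779, with -5.67 to 0.744. Single genes that reversed were S100a8 in the interaction (0.32 over 6 libraries) and Muc13 by label (-0.074 in list A, -0.13 to 1.03 with a library left out, of which -0.12 without KO3). Against the other cells, B4galt1 turned to -0.015 without the deepest cells and ran from -0.18 to 0.25 with a library left out, and Muc13 was at -0.26 with at least 3 of the 6 genes. The causes were not tested.

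The number of gated cells, 0 to 5 in 4 libraries, limits the precision of these results.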
